A study of Homo sapiens with 6 samples.

Results

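The 9 genes described here encode AP-1 and immediate early transcription factors, namely FOS, FOSL1, FOSL2, JUN, JUNB, JUND, ATF3, EGR1 and IER2. They were picked out by gene symbol, with earlier results of these data known, and all 9 were found among the 58735 genes of the deposited table. The cells were MDA-MB-231, an established human breast adenocarcinoma line that lacks the usual hormone receptors and grows as invasive, mesenchymal-like cells. All 6 libraries came from this line, whose genotype the labels give as WT and whose table columns carry the prefix SCR, the name the study uses for cells with a non-targeting shRNA. In 3 libraries the cells received 0 Gy and served as the control, and in the other 3 they received 10 Gy of gamma rays from a caesium source, with RNA taken 24 h later and sequenced after polyA enrichment. The comparison asks how the message levels of these factors differed at that time. The labels do not say whether the replicates were separate cultures, so the p-values measure the spread between these libraries, which may be technical.

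AP-1 is a dimer of basic leucine zipper (bZIP) proteins. A JUN protein pairs with itself or with a FOS or ATF protein, the paired zippers hold the dimer together, and the basic regions grip the DNA sequence TGANTCA or the related TGACGTCA. FOS, JUN, EGR1 and IER2 are textbook immediate early genes, which are transcribed within minutes of a growth factor or stress signal through MAP kinases and the serum response factor SRF, and whose messages decay quickly. FOSL1, which encodes FRA-1, is in contrast a factor that stays high in invasive breast cancer lines with active RAS signalling. A sample at 24 h therefore reads a late state and not the first wave.

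Values are FPKM as deposited, a fragment count divided by gene length and by a depth for the library. Comparisons between genes therefore rest on the deposited gene length, and comparisons between libraries on the depth used. From 15643641 to 28861781 fragments per library were recovered from the values. The depth used was 0.973, 0.983 and 0.991 times the recovered fragments in the 0 Gy libraries and 1.036, 1.039 and 1.028 times in the 10 Gy libraries. The deposited values thus already carry a scaling that differs by dose and lowers the 10 Gy values relative to the recovered totals. Pearson's r between libraries across genes, on the log2(FPKM + 1) scale, was at least 0.992 within a dose and at most 0.989 between doses. All 8 marker genes of the line were expressed, led by LGALS1 at a mean of 588.9 FPKM and VIM at 300.9 FPKM without irradiation, and of 6 luminal and epithelial genes that should be low, PGR was listed at 0 in every library, while ERBB2, GATA3 and EPCAM had means of 7.08 FPKM, 3.05 FPKM and 1.44 FPKM at 0 Gy. Of 10 leukocyte, endothelial and fibroblast genes, 3 had a mean of at least 1 FPKM, their sum was 5.59 to 6.91 FPKM at 0 Gy and 8.35 to 9.11 FPKM at 10 Gy, and CD3E was listed at 0 throughout. Among the 3 above 1 FPKM, PECAM1 went from 1.22 to 1.94 FPKM and COL1A1 from 3.03 to 4.19 FPKM, both called higher (limma adjusted p of 0.00265 and 0.00173), and their part in the results was not tested. In bulk RNA, fewer cells with a message and less message per cell cannot be told apart.

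At 24 h after 10 Gy, the messages of 3 of the 9 factors were lower and none was called higher. FOSL1 fell from 270.8 ± 2.65 to 195.9 ± 7.45 FPKM and JUN from 56.0 ± 2.57 to 42.6 ± 1.00 FPKM (mean ± SD, n = 3), and IER2 fell by a smaller amount. FOSL2, JUNB and ATF3 had higher means after the dose but did not pass the threshold, and JUND, FOS and EGR1 did not pass it either. The test was limma, applied to log2(FPKM + 1) of the 12128 genes whose mean reached 1 FPKM, and a gene was called when its Benjamini-Hochberg adjusted p was under 0.05. All 9 factors passed that filter. The 3 lower calls are 33.3% of the 9, against 23.7% of all genes tested, so the share is not far from the background, and the 0 higher calls compare with 11.9% of all genes. In either direction 35.6% of all genes were called. At an unadjusted p under 0.05 there were 6 of the 9, the 3 lower genes and, in the higher direction, FOSL2, JUNB and ATF3, which a limma-voom fit to the recovered fragments called higher. The 35.6% of all genes that were called all pass this looser threshold, and further genes pass it too. The 6 of the 9 are therefore not read as an excess. Scaling weighed on the split, since the summed FPKM was 269611 to 278380 at 0 Gy and 246920 to 254918 at 10 Gy. With the libraries scaled to TPM, which gives each the same sum over genes, 2 of the 9 were called lower and 3 higher, and the split over all genes went from 1443 higher and 2874 lower to 3113 and 1066. The median log2 change of the 9 was -0.11, and that of all genes tested was -0.04.

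**Figure D1:**
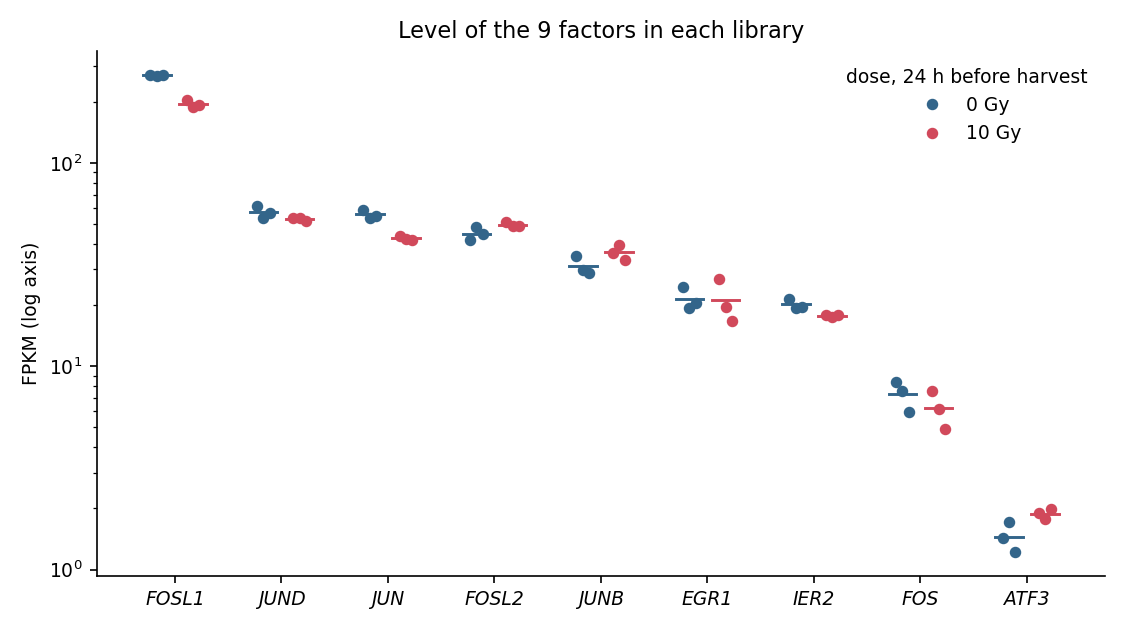
FPKM of the 9 factors in each of the 6 libraries, on a log axis. Points are libraries, the short lines are means of 3 libraries, blue is 0 Gy and red is 10 Gy. FOSL1 lies above every other factor at both doses, and its 10 Gy libraries, at 190 to 204 FPKM, lie below all 0 Gy libraries, at 268 to 272 FPKM.

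**Figure D2:**
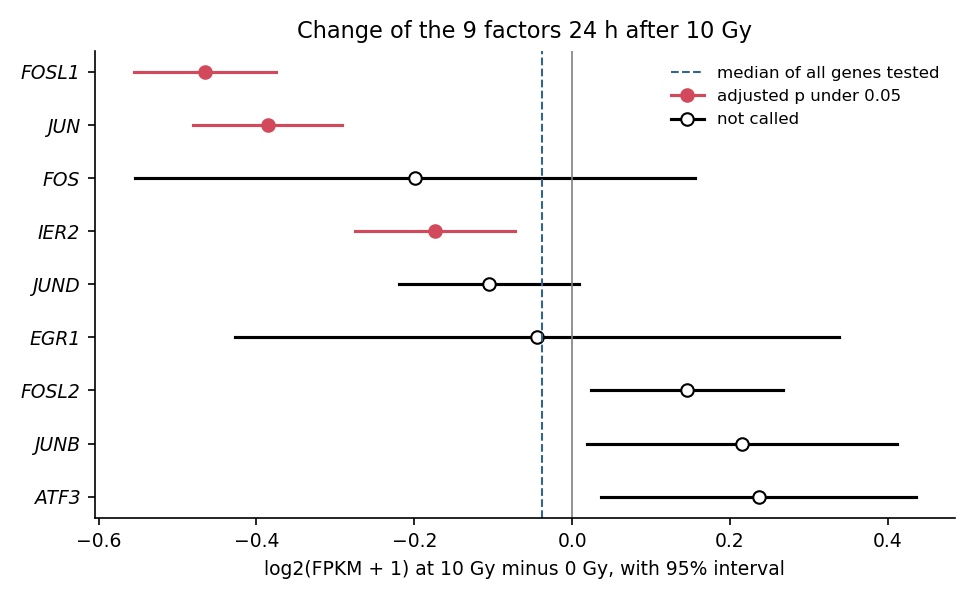
Change of each factor at 10 Gy against 0 Gy on the log2(FPKM + 1) scale, with the 95% interval from limma. Filled red points passed the adjusted p of 0.05 and open points did not. FOSL1, JUN and IER2 passed, all below 0, and the intervals of FOS and EGR1 are the widest of the 9.

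The FOS family spans a wide range of levels, and its members share part of the bases that encode the basic region. The stretch that encodes the basic region is shown for its members because all FOS proteins contact AP-1 sites through it. The bases are from the GENCODE 29 principal transcripts on GRCh38, all in exon 3 of 4, and capitals mark the 28 of 48 bases that are identical in the 4 genes. FOSL1 lies on the minus strand at chr11:65894044-65894091, and FOSL2, FOS and FOSB lie on the plus strand at chr2:28408789-28408836, chr14:75280590-75280637 and chr19:45471224-45471271.
FOSL1: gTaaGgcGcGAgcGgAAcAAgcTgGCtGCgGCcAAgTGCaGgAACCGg
FOSL2: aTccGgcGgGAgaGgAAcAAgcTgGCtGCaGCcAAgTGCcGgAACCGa
FOS: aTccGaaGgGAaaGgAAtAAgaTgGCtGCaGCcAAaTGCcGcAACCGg
FOSB: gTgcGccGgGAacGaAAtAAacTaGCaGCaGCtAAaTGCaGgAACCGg
Over these bases FOSL2 was 83.3% identical to FOSL1, FOSB 72.9% and FOS 70.8%. The differences are enough to tell the messages apart, since no run of 31 bases in any transcript of 1 of the 9 factors occurred in a transcript of another. Of the 1969 runs in FOSL1, 6.86% also occurred in its pseudogene FOSL1P1, which was listed at 0 in 5 of the 6 libraries.

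FOSL1 (ENSG00000175592) lies at chr11:65892049-65900573 on the minus strand of GRCh38. Its level was 272 FPKM, 268 FPKM and 272 FPKM in the 0 Gy libraries and 204 FPKM, 190 FPKM and 194 FPKM in the 10 Gy libraries. The groups did not overlap, and the spread within each was small beside the gap between them. The log2 change was -0.47 (SE 0.038, limma adjusted p = 0.000593), a level 27.6% lower. FOSL1 was the third most abundant of the 1553 genes that the table assigns to a transcription factor family, after HMGA1 and YBX1, and stood at rank 101 of all genes at 0 Gy. It kept rank 3 after the dose.

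FOSL2 (ENSG00000075426, chr2:28392448-28417312, plus strand) encodes FRA-2, the nearest relative of FRA-1 in this family. It measured 42.0 FPKM, 48.2 FPKM and 44.6 FPKM without irradiation and 51.3 FPKM, 49.3 FPKM and 48.7 FPKM after it. Every 10 Gy library was above every 0 Gy library, by a narrow margin at the closest pair. The log2 change of 0.15 (SE 0.052) had a limma adjusted p of 0.0645. It passed the threshold in 6 of 17 alternative analyses, among them 3 that rescale the libraries, where the change was 0.19 to 0.28, and the one without the second 0 Gy library (adjusted p = 0.0175). An antisense gene, FLJ31356, overlaps FOSL2 over 2225 bases but was measured at no more than 0.21 FPKM. A sense intronic gene on the same strand, AC104695.3, overlaps it over 296 bases and had means of 0.54 FPKM at 0 Gy and 1.31 FPKM at 10 Gy. Its part in the level of FOSL2 was not tested.

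FOS (ENSG00000170345, chr14:75278774-75282230, plus strand), the founding member, stood far below both relatives. Its level was 8.34 FPKM, 7.53 FPKM and 5.93 FPKM at 0 Gy and 7.56 FPKM, 6.19 FPKM and 4.94 FPKM at 10 Gy, with broad overlap. The log2 change of -0.20 (SE 0.15, limma adjusted p = 0.337) was within the spread between libraries, and its 95% interval ran from -0.55 to 0.16. FOSB, a further family member, averaged 0.75 FPKM at 0 Gy and 0.86 FPKM at 10 Gy, under the filter, and was not tested.

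The JUN family is encoded by genes with a single exon, and the matching stretch of its 3 members is shown because these proteins are the obligate partners of the FOS proteins. Capitals mark the 33 of 48 bases that the 3 genes share, again from the GENCODE 29 transcripts on GRCh38. The stretches are chr1:58782255-58782302 on the minus strand for JUN, chr19:12792588-12792635 on the plus strand for JUNB and chr19:18280621-18280668 on the minus strand for JUND.
JUN: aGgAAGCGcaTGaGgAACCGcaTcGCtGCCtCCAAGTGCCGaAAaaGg
JUNB: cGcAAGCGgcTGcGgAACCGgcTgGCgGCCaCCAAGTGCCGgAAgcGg
JUND: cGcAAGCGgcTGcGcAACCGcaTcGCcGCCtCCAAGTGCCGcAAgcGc
JUND was 77.1% and JUNB 72.9% identical to JUN over these bases.

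JUN (ENSG00000177606, chr1:58780788-58784327, minus strand) encodes the most potent transcriptional activator of its family. It measured 58.9 FPKM, 54.0 FPKM and 55.1 FPKM in the 0 Gy libraries and 43.7 FPKM, 42.3 FPKM and 41.8 FPKM in the 10 Gy libraries. The groups were well apart. The log2 change was -0.39 (SE 0.040, limma adjusted p = 0.000965), a level 23.9% lower. FOSL1 and JUN were the 2 factors that were both called and changed at least 1.3-fold in mean FPKM, which 9.34% of all genes tested were.

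JUNB (ENSG00000171223, chr19:12791496-12793315, plus strand) is known to restrain JUN in several settings. It measured 35.0 FPKM, 29.7 FPKM and 28.8 FPKM at 0 Gy and 36.1 FPKM, 39.4 FPKM and 33.5 FPKM at 10 Gy. The groups overlapped through the first 0 Gy library, and without that library the log2 change of 0.22 (SE 0.084, limma adjusted p = 0.0831) became 0.30 with an adjusted p of 0.0179. It passed in 6 of 17 alternatives in all. JUNB lies wholly inside HOOK2 on the opposite strand, and 12.8% of its 31-base runs occurred in HOOK2 transcripts. HOOK2 was measured at 1.34 to 1.89 FPKM, and the sources used here do not say whether the counting used strand.

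JUND (ENSG00000130522, chr19:18279760-18281622, minus strand), the JUN gene that is usually expressed without a stimulus, measured 61.2 FPKM, 53.7 FPKM and 57.0 FPKM at 0 Gy. It measured 53.8 FPKM, 53.7 FPKM and 51.9 FPKM at 10 Gy. The groups overlapped, and the log2 change of -0.11 (SE 0.049, limma adjusted p = 0.131) turned to 0.02 when the libraries were scaled to TPM. Without the second 0 Gy library the change was -0.15 and passed (adjusted p = 0.0388).

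The share of each gene in the summed FPKM of its family does not depend on how the libraries were scaled, and the shares are given as a description, without a test. FOSL1 made up 83.6% ± 0.95 of the summed FPKM of FOSL1, FOSL2, FOS and FOSB at 0 Gy and 77.5% ± 0.54 at 10 Gy (SD, n = 3). FOSL2 took 13.9% ± 0.95 and 19.7% ± 0.30. The shares of both genes did not overlap between doses, nor did that of FOSB, at 0.23% ± 0.022 and 0.34% ± 0.072, while the share of FOS, 2.25% ± 0.38 and 2.46% ± 0.44, overlapped. Shares within a family are tied together, so a lower FOSL1 raises the other shares even without a change in their own FPKM. The summed FPKM of this family was 323.7 ± 0.49 at 0 Gy and 252.8 ± 9.81 at 10 Gy. The change of FOSL2 in FPKM was not called, and the FPKM of FOSB overlapped between doses. The ratio of FOSL1 to FOSL2 was 6.49, 5.55 and 6.10 at 0 Gy and 3.98, 3.85 and 3.98 at 10 Gy.

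In the JUN family the share of JUN was 38.8% ± 0.71 at 0 Gy and 32.3% ± 0.90 at 10 Gy. JUNB had 21.5% ± 1.06 and 27.5% ± 1.44, again without overlap, while its own FPKM overlapped and its change was not called. The summed FPKM of this family was 144.5 ± 9.35 at 0 Gy and 132.1 ± 4.31 at 10 Gy. JUND held 39.7% ± 0.70 and 40.3% ± 0.58, with overlapping groups. The ratio of JUN to JUNB was 1.68, 1.82 and 1.91 without irradiation and 1.21, 1.07 and 1.25 after it. FOSL1 and JUN kept a near ratio to each other, 4.84 ± 0.19 and 4.60 ± 0.099, and these groups overlapped. These ratios are likewise a description, since an exact permutation test of 3 libraries against 3 cannot give a two-sided p under 0.1.

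**Figure D3:**
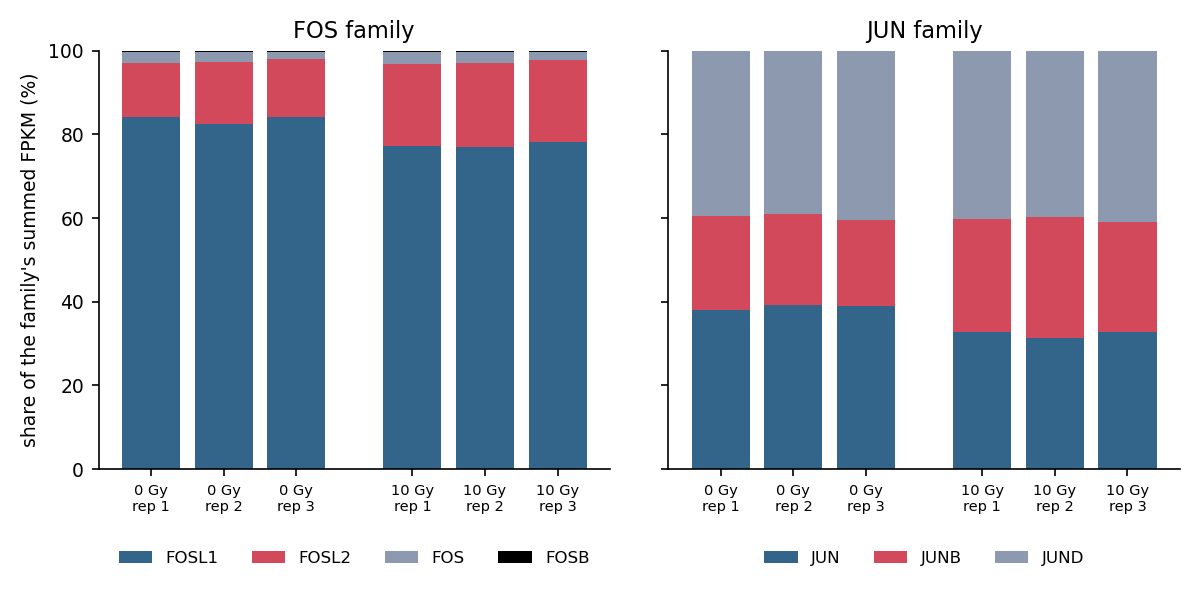
Share of each gene in the summed FPKM of its family, as stacked bars from 0 to 100% for each of the 6 libraries, with the FOS family on the left and the JUN family on the right. The bar of FOSL1 is shorter and that of FOSL2 longer in every 10 Gy library than in any 0 Gy library, and JUN and JUNB differ in the same manner.

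ATF3 (ENSG00000162772, chr1:212565334-212620777, plus strand) encodes a stress-induced bZIP protein that pairs with JUN proteins and often represses. It was the least abundant of the 9, at 1.43 FPKM, 1.71 FPKM and 1.22 FPKM without irradiation and 1.89 FPKM, 1.78 FPKM and 1.98 FPKM after it. These values rest on 106 to 228 fragments per library. The groups did not overlap, though the closest pair of libraries was near, and the log2 change of 0.24 (SE 0.085) had a limma adjusted p of 0.0659. It passed in 6 of 17 alternatives, including the one without the second 0 Gy library (adjusted p = 0.028). A limma-voom fit to the recovered fragments, which does not add 1 FPKM to each value, gave 0.41 with an adjusted p of 0.0155.

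EGR1 (ENSG00000120738, chr5:138465490-138469315, plus strand) is a zinc finger factor, not a bZIP protein, and a classical target of SRF. It measured 24.5 FPKM, 19.4 FPKM and 20.6 FPKM at 0 Gy and 27.0 FPKM, 19.5 FPKM and 16.8 FPKM at 10 Gy. The 10 Gy libraries enclosed the whole range of the 0 Gy libraries. The log2 change of -0.04 (SE 0.16, limma adjusted p = 0.851) had a 95% interval of -0.43 to 0.34, and its sign turned under 5 of 17 alternatives, 3 of them rescalings. FOS was, like EGR1, highest in the first library of each dose, and the 2 genes varied together across the 6 libraries (Pearson's r = 0.777, a description over libraries that also differ in dose).

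IER2 (ENSG00000160888, chr19:13150415-13154908, plus strand) is an immediate early gene whose nuclear protein is not a bZIP factor. It measured 21.4 FPKM, 19.3 FPKM and 19.7 FPKM in the 0 Gy libraries and 17.9 FPKM, 17.4 FPKM and 17.9 FPKM in the 10 Gy libraries. The groups did not overlap. The log2 change was -0.17 (SE 0.043, limma adjusted p = 0.0195), a level 0.880 times that at 0 Gy, and the call was lost in 6 of 17 alternatives. These included scaling to TPM, where the change was -0.05 with an adjusted p of 0.309, and leaving out any 1 of the 10 Gy libraries, where the adjusted p was 0.0508 to 0.0719. An antisense gene, AC011446.2, shares 28.9% of the 31-base runs of IER2 and was listed at 0 in all 6 libraries.

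In all, 5 of the 9 factors had groups of libraries that did not overlap, FOSL2 and ATF3 above and FOSL1, JUN and IER2 below, which was true of 51.9% of all genes tested. The order of the levels at 0 Gy was FOSL1, JUND, JUN, FOSL2, JUNB, EGR1, IER2, FOS and ATF3. FOSL1 stood 4.72 times above JUND, while the ranges of JUND and JUN and those of EGR1 and IER2 overlapped. At 10 Gy the order was the same except that FOSL2 stood above JUN, their ranges not overlapping at either dose, and EGR1 and IER2 were the only neighbours in the order with overlapping ranges. Among the genes assigned to a transcription factor family, JUN went from rank 20 to 27 and FOSL2 from rank 27 to 20.

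Promoter sequence was available from the RefSeq table for 8 of the 9 genes, in 9 windows, ATF3 having a pair of start sites. The 250 bases before each start were searched on both strands for TGANTCA, TGACGTCA, the EGR1 site GCGTGGGCG and the CArG box that SRF binds. TGACATCA was added to the search after the sequences had been seen. No match overlapped another. The stretches with a match are shown, as bases of GRCh38.p14 on the strand of the gene with the match in capitals, because immediate early genes and AP-1 genes are known for binding sites of this kind. They are chr5:138465359-138465420 for EGR1, chr19:18281800-18281837 for JUND, chr1:58784097-58784124 for JUN, where GENCODE 29 places an exon, and chr1:212565269-212565306 for ATF3.
EGR1: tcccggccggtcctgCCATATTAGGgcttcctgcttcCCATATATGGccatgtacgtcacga
JUND: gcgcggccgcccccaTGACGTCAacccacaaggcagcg
JUN: ggccttggggTGACATCAtgggctattt
ATF3: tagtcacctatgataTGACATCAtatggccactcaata
EGR1 held 2 CArG boxes, a motif found in 1.16% of 35116 promoters of the same length. JUND held TGACGTCA, found in 1.65%, and JUN and ATF3 held TGACATCA, found in 2.37%. TGANTCA, found in 6.57%, and GCGTGGGCG, found in 0.72%, matched none of the 8 genes. JUN, which fell, and ATF3, which was not called, had the same motif. In ATF3 the match was in the window at chr1:212565157-212565456 and not in its other window. The JUN window had 0 upstream bases outside GENCODE 29 exons. A match is a match of letters only, and the lack of one says only that these letters are not in the window.

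Other bZIP genes that can share AP-1 sites or partners were called in the lower direction alone. Of 21 listed, 16 were tested, of which 8 were lower and 0 higher by limma (0 higher also at an unadjusted p under 0.05 and by limma-voom, and 5 lower and 1 higher with TPM scaling), with a median log2 change of -0.22. The lower calls are 50% of those tested, against 23.7% of all genes. This list and those below were chosen with earlier results of these data known, so their shares are a description and are not read as an excess. On the log2(FPKM + 1) scale, which damps the change of low genes such as JDP2, the largest falls were those of CEBPG, a C/EBP-type dimer partner, from 22.7 ± 0.24 to 17.2 ± 0.45 FPKM (log2 change -0.38, limma adjusted p = 0.000593), and DDIT3, the stress factor CHOP, from 14.7 ± 1.38 to 11.3 ± 0.56 FPKM (log2 change -0.35, adjusted p = 0.0077). JDP2, which pairs with JUN proteins and represses, fell from 2.63 ± 0.038 to 1.94 ± 0.026 FPKM (log2 change -0.30, adjusted p = 0.00429). MAFF, a small MAF protein without an activation domain, fell from 16.7 ± 0.88 to 14.1 ± 0.22 FPKM (log2 change -0.23, adjusted p = 0.00667, and 0.0696 with TPM scaling). BATF, a JUN partner best known from lymphocytes, measured 2.70 ± 0.26 and 2.19 ± 0.25 FPKM, on 37 to 63 fragments per library, and was not called (adjusted p = 0.0755). Over the 48 genes that the table itself marks as bZIP, a grouping taken up after the table had been opened, 35 were tested, of which 1 was higher and 12 lower, 34.3% against the 23.7% of all genes, so this share is not far from the background.

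Other immediate early genes were called in both directions. Of 36 listed, 27 were tested, of which 13 were lower and 2 higher, with a median of -0.13, and with TPM scaling 9 were lower and 5 higher. The lower calls are 48.1% of those tested, against 23.7% of all genes. CTGF, a secreted matricellular protein, fell from 118.5 ± 9.08 to 57.6 ± 3.76 FPKM (log2 change -1.03, SE 0.067, limma adjusted p = 0.000428). GADD45A, a growth arrest and DNA damage gene, fell from 30.2 ± 3.11 to 18.6 ± 0.93 FPKM (log2 change -0.66, adjusted p = 0.00122). SNAI1, a repressor of epithelial genes, rose from 1.95 ± 0.30 to 2.98 ± 0.38 FPKM (log2 change 0.43, adjusted p = 0.0154), and KLF10, a TGF-beta-induced repressor, rose from 21.8 ± 1.18 to 24.3 ± 0.64 FPKM (log2 change 0.15, adjusted p = 0.0343). Neither rise passed when the first or second 10 Gy library was left out, and KLF10 lost its call in 8 of 17 alternatives. The values of SNAI1 rest on 58 to 166 fragments per library. Its mean at 10 Gy was 1.52 times that at 0 Gy, a change that the log2(FPKM + 1) scale damps.

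Upstream of these genes stand SRF and its partners. Of 12 genes for SRF, its ternary complex partners, related ETS factors, CREB1 and co-activators, all tested, 5 were lower and 1 was higher. The median was -0.03, and with TPM scaling 3 were lower and 4 higher. The 5 are 41.7% of the list, against 23.7% of all genes. They include SRF, which the immediate early list also counts, and the bZIP gene CREB1, which the list of other bZIP genes also counts. The lists are therefore not separate sets of genes. ETS1 fell from 48.2 ± 2.12 to 37.1 ± 0.62 FPKM (log2 change -0.37, limma adjusted p = 0.000971) and ELK3, a ternary complex factor, from 41.9 ± 0.87 to 34.4 ± 0.28 FPKM (log2 change -0.28, adjusted p = 0.000964). EP300, a histone acetyltransferase that AP-1 recruits, rose from 7.76 ± 0.99 to 9.80 ± 0.26 FPKM (log2 change 0.31, adjusted p = 0.0229), a call that was lost without the first (adjusted p = 0.0737) or the second 10 Gy library (adjusted p = 0.069).

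The list of MAP kinases, kinases upstream of them, RPS6KA kinases and GSK3B had a median log2 change near 0. Of 28 listed, 25 were tested, of which 4 were lower, 16% against 23.7% of all genes, and 2 higher, but with TPM scaling 1 was lower and 10 were higher, so no direction is given for the list. RPS6KA4, the kinase MSK2, fell from 48.1 ± 2.59 to 36.7 ± 1.48 FPKM (log2 change -0.38, limma adjusted p = 0.00178), and ARAF fell from 19.5 ± 0.38 to 16.4 ± 0.57 FPKM (log2 change -0.23, adjusted p = 0.00357), but with TPM scaling its change was -0.11 and its call was lost (adjusted p = 0.0793). MAP3K1, which feeds the JUN kinase branch, rose from 3.47 ± 0.23 to 4.17 ± 0.22 FPKM (log2 change 0.21, adjusted p = 0.0276), and MAP3K11 rose from 11.3 ± 0.58 to 12.8 ± 0.38 FPKM (log2 change 0.18, adjusted p = 0.0202). Both rises were lost when the first or second 10 Gy library was left out, with adjusted p-values of 0.0561 and 0.0651 for MAP3K1 and 0.0641 and 0.0757 for MAP3K11.

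Genes for the turnover of AP-1 proteins and messages were mixed. Of 16 listed, 15 were tested, of which 4 were lower and 2 higher, with a median of -0.02, and with TPM scaling 3 were lower and 6 higher. The lower calls are 26.7% of those tested, near the 23.7% of all genes. They include ZFP36L1, which the immediate early list also counts. HNRNPD, the AU-rich element binding protein AUF1, fell from 83.4 ± 2.06 to 65.2 ± 1.26 FPKM (log2 change -0.35, limma adjusted p = 0.0007), and TIAL1, a related RNA-binding protein, from 27.3 ± 0.28 to 22.4 ± 0.51 FPKM (log2 change -0.27, adjusted p = 0.00115). CNOT1, the scaffold of the deadenylase complex, rose from 18.7 ± 2.00 to 22.1 ± 0.59 FPKM (log2 change 0.23, adjusted p = 0.0398). The call of CNOT1 was lost in 8 of 17 alternatives, leaving out any 1 of the 10 Gy libraries among them (adjusted p of 0.0694 to 0.112).

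Genes commonly given as AP-1 targets had the highest share of lower calls of these lists, which were chosen with earlier results of these data known. Of 30 listed, 26 were tested, of which 18 were lower, 69.2% against 23.7% of all genes, and 2 higher, 7.69% against 11.9%, with a median log2 change of -0.23. With TPM scaling 11 were lower and 5 higher, against 1066 and 3113 of the 12128 genes. MMP9, a gelatinase, was low, at 1.99 FPKM, 1.00 FPKM and 1.92 FPKM against 0.89 FPKM, 0.84 FPKM and 0.85 FPKM. Its mean at 10 Gy was 0.526 times that at 0 Gy, a change that the log2(FPKM + 1) scale damps. Its call (log2 change -0.48, limma adjusted p = 0.0444) rests on 36 to 99 fragments per library and was lost in 10 of 17 alternatives. IL11, a cytokine of the interleukin 6 family, rose from 79.7 FPKM, 73.2 FPKM and 72.1 FPKM to 110 FPKM, 101 FPKM and 106 FPKM (log2 change 0.49, SE 0.049, adjusted p = 0.000862). VEGFA, an angiogenic growth factor, rose from 18.4 ± 0.38 to 21.3 ± 0.49 FPKM (log2 change 0.20, adjusted p = 0.00416). These genes have other regulators as well, and their lower levels were not tested against the level of FOSL1 or JUN.

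**Figure D4:**
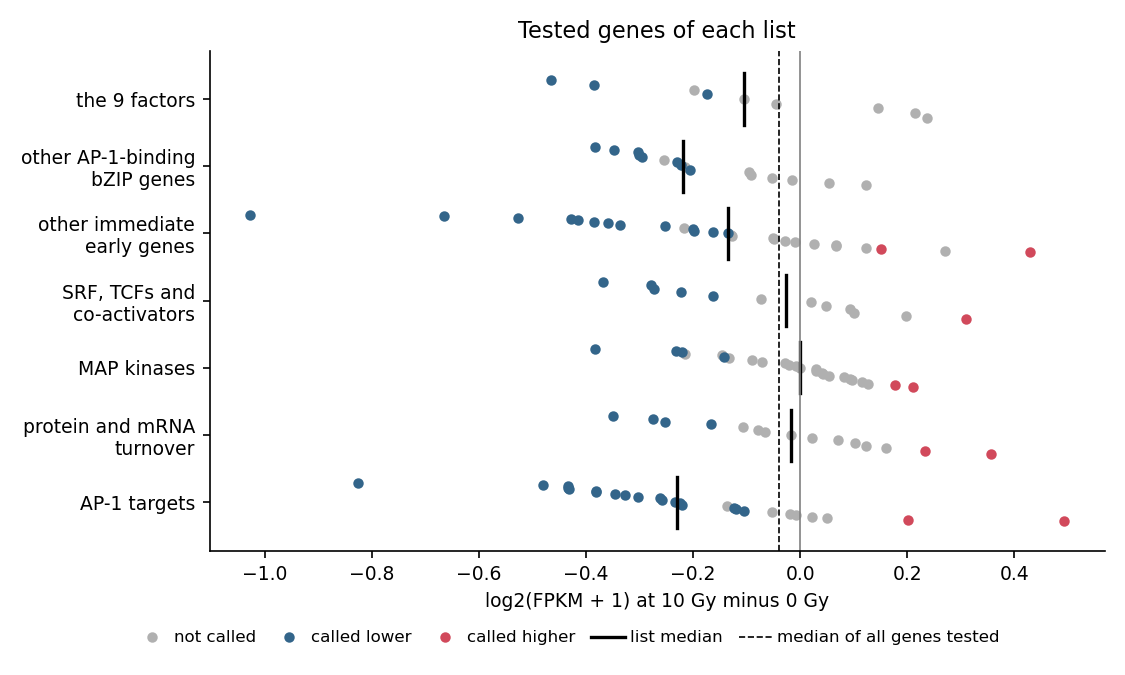
Change at 10 Gy on the log2(FPKM + 1) scale of every tested gene of the 7 lists, 1 point a gene, ordered within each list. Genes on more than 1 list are shown in each. Blue points were called lower, red points higher and grey points not called, the black bar is the median of the list and the dashed line the median of all genes tested, -0.04. The AP-1 targets and other bZIP genes have medians of -0.23 and -0.22, and the genes of the list labelled MAP kinases lie around 0.

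The genes whose pattern over the 6 libraries was most like that of FOSL1, by Pearson's r on log2(FPKM + 1), were CDC45 (r = 0.9993), LPAR1 (r = 0.9987), KLF6 (r = 0.9986), IVNS1ABP (r = 0.9984) and GRK5 (r = 0.9982). JUN had an r of 0.984 with FOSL1. With 6 libraries in 2 dose groups any gene that differs by dose and little within a dose scores high, so these values are a description of shape. KLF6 is on the list of immediate early genes, and its mean was 37.9 FPKM at 0 Gy and 28.2 FPKM at 10 Gy.

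**Figure D5:**
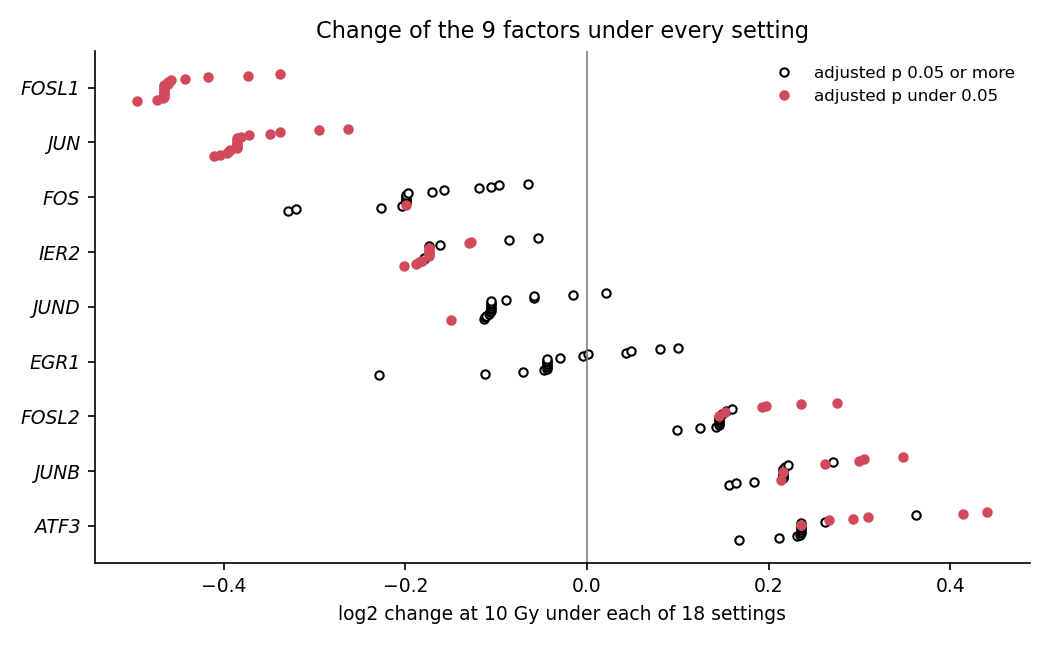
Log2 change of each factor at 10 Gy under the main analysis and 17 alternatives, 18 points a gene, in order of size. Red points had an adjusted p under 0.05 and open points did not. All points of FOSL1 and JUN are red and below 0, whereas those of EGR1 lie on both sides of 0 and none is red.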

How the data were processed

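PolyA RNA of 6 libraries (3 at 0 Gy, 3 at 10 Gy) was measured in 1 table of 58735 genes. The deposited FPKM values were used as the authors made them. The submitters' processing notes name HISAT2 and GRCh38, and the counter, the strand setting and versions are not given in the sources used here. FPKM times gene length gave whole multiples of 1 fragment, within 0.001, for 100% of values, so depth was recovered as 15643641 to 28861781 fragments. No column of per-sample values was left unused. Values were analysed as log2(FPKM + 1) with limma 3.58.1 in R 4.3.3 (empirical Bayes with a trend, mean of at least 1 FPKM, Benjamini-Hochberg adjustment over 12128 genes). The study's methods give no test for this comparison. Tested on simulated data of the same 12128 genes, the fit recovered 94% of 100 genes with a 2-fold change and 41% of 100 with a 1.3-fold change, and 6.90% of its calls were unchanged genes. The simulation gave every gene the same dispersion, changed only these genes and had no scaling difference between doses. These rates therefore need not hold for the real data. Alternatives were the pseudocount, the filter, the scaling, a fit to recovered fragments, a replicate block and leaving out each library. The fit to recovered fragments used the depth behind the deposited values, so it keeps their scaling between doses. All 9 factors are named, and from each list up to 4 called genes with groups apart (the 2 that rose most and the 2 that fell most), plus FOSB, BATF, JDP2 and MAFF as partners; some genes the rule picks are not reported here. The 9 factors and the lists were chosen with earlier results of these data known. Promoters came from RefSeq and transcripts from GENCODE 29.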

Additional observations from a re-analysis of the deposited data

How the results depend on the processing

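FOSL1 and JUN were lower and past the threshold in all 17 alternatives, with log2 changes of -0.50 to -0.34 and -0.41 to -0.26. The number of the 9 factors called higher, 0 in the main analysis, was 3 (FOSL2, JUNB and ATF3) with TPM, upper quartile or median-of-ratios scaling, with a fit to recovered fragments and with protein-coding genes alone, and 0 to 2 when 1 library was left out. JUND turned to 0.021 with TPM scaling, and without the second 0 Gy library it was called at -0.15. EGR1 turned to 0.080, 0.043 and 0.0014 with TPM, upper quartile and median-of-ratios scaling, to 0.049 without the first 0 Gy library and to 0.0998 without the third 10 Gy library, and leaving out each library in turn gave -0.23 to 0.0998. The call of IER2 was also lost without the filter on low values (adjusted p = 0.0587) and with upper quartile scaling (0.117). Among all genes, 1443 higher and 2874 lower calls became 3113 and 1066 with TPM and 2556 and 1444 with upper quartile scaling, and 1815 were lower without the filter. TPM moved the median of all genes from -0.04 to 0.08. Leaving out 1 library gave 846 to 1388 higher and 1805 to 2621 lower calls. The deviations of same-numbered libraries correlated at -0.10 to -0.03 and those of different-numbered libraries at -0.05 to 0.09. No pairing by replicate number was seen across genes, though so few libraries cannot exclude it. With a replicate block, FOS was called at -0.20 (SE 0.047, adjusted p = 0.0316) and no other call among the 9 differed. Of the 23 called genes picked from the lists by the naming rule or as partners, 14 kept their call in every alternative and none changed direction; the others were MMP9, KLF10, CNOT1, MAP3K1, MAP3K11, SNAI1, EP300, MAFF and ARAF. The values of ATF3, MMP9, SNAI1 and BATF rest on few fragments, 106 to 228, 36 to 99, 58 to 166 and 37 to 63 per library.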
